A study of Mus musculus with 6 samples.

Results

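Tight junction and apical polarity genes were followed in Met-1 mammary carcinoma cells without and with induction of the microRNA miR-200c. Members were all genes with a claudin symbol (Cldn and a number), 25 in the table, and 28 further genes taken by name, which gave 53 of the 43548 gene identifiers measured. The named genes are grouped here by role into the MARVEL proteins occludin, Marveld2 and Marveld3, the immunoglobulin-like adhesion proteins F11r, Jam2, Jam3 and Lsr, and the cytoplasmic plaque (Tjp1, Tjp3, Mpdz, Cgn and Cgnl1). Polarity genes were grouped into the Crumbs complex (Crb3, Mpp5, Inadl and Lin7c), the PAR-aPKC complex (Pard3, Pard6a, Pard6b, Pard6g, Prkci and Prkcz), the Scribble module (Scrib, Dlg1, Llgl1 and Llgl2) and the angiomotins Amot and Amotl1. The rule takes genes by name, although it was set with earlier results of these data known. The rows named Cldn25 and Cldn26 carry the identifiers of Cldnd1 and Tmem114 in GENCODE M21 and are counted among the 25 by their name in the table.

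Tight junctions seal the space between epithelial cells just below the apical surface. Claudins form the strands of the seal, MARVEL and immunoglobulin-like proteins accompany them, and plaque proteins such as ZO-1 and cingulin tie the strands to the actin cytoskeleton. The Crumbs and PAR-aPKC complexes mark the apical side and the Scribble module the basolateral side, and cells in an epithelial-to-mesenchymal transition (EMT) commonly lose parts of this machinery. ZEB1 and ZEB2, transcription factors that repress epithelial genes, bind E-box DNA and are known targets of the miR-200 family.

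Met-1 cells come from a late-stage mammary tumor of an FVB/nJ MMTV-PyMT mouse. In Met-1 TripZ-200c cells a doxycycline (Dox)-inducible lentiviral pTripZ vector with an RFP tag carries the miR-200c precursor. The line is a single clone, sorted first for cells without leaky RFP and then for intermediate RFP after Dox. Both groups held this vector, were grown in DMEM and treated in RPMI with serum, and received vehicle (water) or 1 µg/mL Dox for 48 h, with 3 libraries per group. The libraries come from a single clone, so p-values measure the spread between libraries of that clone. The sample labels do not say whether these were plates of the same experiment or separate experiments. Empty-vector cells were not analysed here, so Dox itself and miR-200c cannot be told apart.

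Expression was deposited as FPKM, fragment numbers scaled to transcript length and to the mapped reads of the library. The steps between low values correspond to between 11700000 and 19000000 reads per library. All 37 mitochondrial genes listed were at 0 in every library, so a gene at 0 is described only as listed at 0. The miR-200c gene was itself listed at 0 in all 6 libraries, which held mRNA and not mature microRNA. Zeb2 was at 27.9 to 30.7 FPKM without Dox and 7.82 to 9.04 FPKM with Dox, and Zeb1 at 41.0 to 42.3 and 19.8 to 23.6 FPKM. Of 11 epithelial genes read, Krt18 was the highest without Dox, at 91.2 to 96.4 FPKM. Esrp2 followed at 3.07 to 4.09 FPKM and Elf3 at 0.947 to 2.18 FPKM. The others were low there, with Krt8 at 0.186 to 0.388 FPKM, Grhl2 at 0.156 to 0.204 FPKM and Epcam at 0.0844 to 0.161 FPKM. Cdh1 was at 0.0419 to 0.0776 FPKM, and Krt19 and Ovol2 were listed at 0. Vimentin was at 3840 to 4050 FPKM without Dox and 3030 to 3200 FPKM with Dox. Cdh2 was at 103 to 105 FPKM without Dox and 96.6 to 103 FPKM with Dox, and Snai2 at 1.43 to 2.37 and 2.33 to 3.22 FPKM. Of 8 mesenchymal genes read, 6 had a log2 difference below 0 (with Dox minus without) and 2 above 0. Of 7 leukocyte markers 1 reached a mean of 1 FPKM, Cd68, and the list summed to 6.45 to 11.4 FPKM without Dox and 6.85 to 7.63 FPKM with Dox. Of 6 endothelial markers 1 did so, Cdh5, with sums of 4.47 to 5.12 and 4.19 to 4.72 FPKM. Tie1, Cd3e and Emr1, markers of endothelium, T cells and macrophages, were the only genes of these lists at 0 in every library. Over all libraries Cdh5 was at 3.95 to 4.66 FPKM and Kdr at 0.121 to 0.373 FPKM. Cd68 was at 6.31 to 11.3 FPKM and Csf1r at 0.0115 to 0.128 FPKM. The 5 fibroblast and pericyte markers summed to 50.4 to 52.7 FPKM without Dox and 29.9 to 32.3 FPKM with Dox, nearly all of it Pdgfra and Pdgfrb. Their part in the results was not tested.

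The sequences that bear on these genes are shown first. Induced miR-200c-3p shares its seed (bases 2 to 8, in capitals) with miR-200b-3p, while miR-141-3p from the same locus on chromosome 6 differs in it. Mature sequences are those of RefSeq on GRCm38.p6.
mmu-miR-200c-3p: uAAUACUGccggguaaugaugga
mmu-miR-200b-3p: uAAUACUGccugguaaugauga
mmu-miR-141-3p: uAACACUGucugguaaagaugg

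The DNA letters that pair with the miR-200c seed, CAGTATT, stood in the longest annotated 3′ UTR of 2 of the 24 members with a mean of at least 1 FPKM (8.33%). Among all genes tested that have a 3′ UTR, 1824 of 10812 held them (16.9%). The 2 members were Pard6b and Mpp5, and among members at lower levels occludin, Cldn11 and Cldn23 held them too. The windows of Pard6b, Ocln and Mpp5, whose values are given library by library below, are printed with the paired letters in capitals, from GENCODE M21 transcripts.
Pard6b 3′ UTR: ctattaaatgtCAGTATTttactacaatt
Ocln 3′ UTR: tttcctatctcCAGTATTgaagcatttta
Mpp5 3′ UTR: gctgagaataaCAGTATTttcttaaacaa

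The E-box letters CACCTG, read on either strand and so also as CAGGTG, were searched in RefSeq promoter windows of 250 bases before and 50 bases after each annotated start. Windows were found for 41 of the 53 members. The 12 without an entry were Cldn8, Cldn9, Cldn13, Cldn23, Jam2, Jam3, Llgl2, Marveld3, Mpdz, Mpp5, Pard6g and Scrib. The letters stood in at least 1 window of 17 of the 41, against 22.6% of the 27025 genes in the table. Crb3 and Lsr held 4 in a window, and 17 of the 27025 genes, these included, held at least 4 (0.0629%). The stretches below were chosen for the highest counts (Crb3 and Lsr), for a member with 2 (Pard6b) and for Cgn, which had none and the largest fold among tested members above 0 without Dox, and E-box letters are in capitals. Each stretch ends before the first GENCODE M21 exon that falls in its window, which in Crb3 leaves out 3 of the 4. The Crb3 stretch precedes the start used by RefSeq and lies in the first intron of a longer GENCODE transcript. A match is a description of letters and not a bound site.
Crb3, chr17:57061951-57062140, + strand: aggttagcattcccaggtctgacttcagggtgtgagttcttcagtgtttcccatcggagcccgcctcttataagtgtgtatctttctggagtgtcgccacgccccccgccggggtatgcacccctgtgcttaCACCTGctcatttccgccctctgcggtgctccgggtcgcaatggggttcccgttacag
Lsr, chr7:30973470-30973719, - strand: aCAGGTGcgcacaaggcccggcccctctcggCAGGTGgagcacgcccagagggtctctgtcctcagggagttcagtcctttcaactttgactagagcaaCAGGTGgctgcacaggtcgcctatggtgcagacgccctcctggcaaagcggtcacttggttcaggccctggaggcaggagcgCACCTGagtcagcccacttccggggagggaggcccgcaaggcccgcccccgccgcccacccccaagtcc
Pard6b, chr2:168080754-168081003, + strand: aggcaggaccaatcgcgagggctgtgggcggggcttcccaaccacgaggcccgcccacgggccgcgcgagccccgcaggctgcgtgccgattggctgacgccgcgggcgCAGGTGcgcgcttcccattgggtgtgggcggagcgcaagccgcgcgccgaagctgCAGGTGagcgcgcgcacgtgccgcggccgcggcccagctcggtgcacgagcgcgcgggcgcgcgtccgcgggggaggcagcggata
Cgn, chr3:94786493-94786732, - strand: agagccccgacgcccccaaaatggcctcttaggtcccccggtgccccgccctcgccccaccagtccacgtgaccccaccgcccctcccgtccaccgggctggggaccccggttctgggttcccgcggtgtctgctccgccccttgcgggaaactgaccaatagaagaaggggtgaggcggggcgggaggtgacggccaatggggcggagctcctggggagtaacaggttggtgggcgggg

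Of the 53 members, 44 were above 0 in at least 1 library and 9, all claudins, were listed at 0 in all 6. The 24 whose mean over all libraries reached 1 FPKM were tested, among them 3 of the 25 claudins and none of the 3 MARVEL genes. The comparison used limma on log2(FPKM + 0.1) with adjustment over all 12879 genes that passed this filter. Gene positions below are those of GENCODE M21 on GRCm38, and each named member is protein-coding. With Dox, 10 of the 24 members rose at an adjusted p under 0.05. In bulk samples, more cells expressing a gene and more RNA per cell cannot be told apart. Among all genes tested 7.06% rose and 7.97% fell. No member (0 of 24) fell by limma, 0 did so by the unmoderated linear model, and 0 were lower at an unadjusted p under 0.05. Crb3 passed the filter only through its values with Dox, and without it the count was 9 of 23. The median log2 difference of the 24 members was 0.15, with or without Crb3, against 0.004 over all genes tested. The 3 libraries with Dox all lay above the 3 without in 15 members and below them in 1, where 17.4% and 17.6% of all genes did so.

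**Figure D1:**
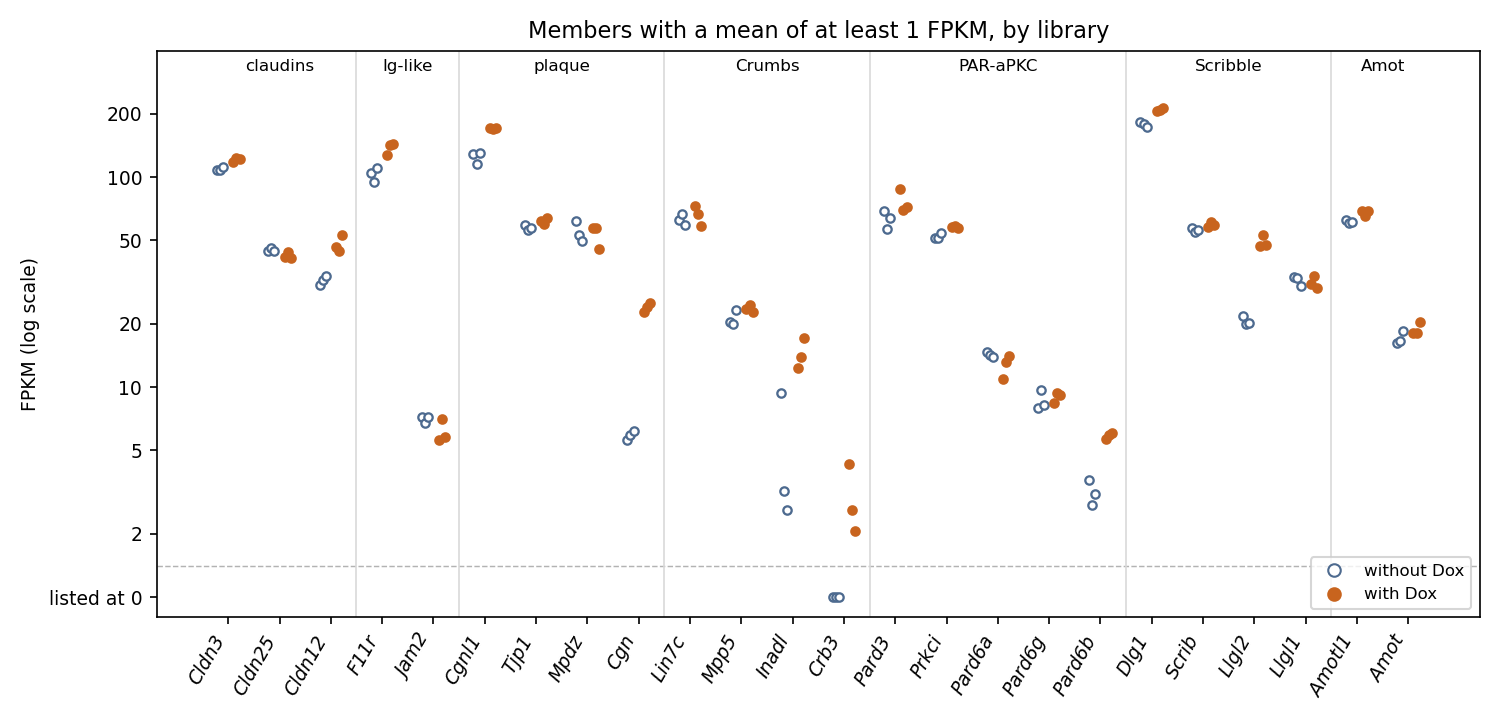
FPKM of the 24 members with a mean of at least 1 FPKM in each of the 6 libraries on a log axis, grouped by role, with open circles for libraries without Dox and filled circles for libraries with Dox. Values listed at 0 are drawn under the dashed line, where the 3 Crb3 libraries without Dox lie, and the groups stand clearly apart in Cgn, Llgl2 and Pard6b.

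The FPKM of the rows with a claudin symbol came almost wholly from Cldn3, Cldn12 and Cldn25, the last being Cldnd1 by its identifier. Cldn3 made up most of it in both groups. Cldn3 (ENSMUSG00000070473, chr5:134986214-134987472, + strand), a sealing claudin of many epithelia and the highest claudin here, was at 108, 108 and 112 FPKM without Dox and 118, 124 and 122 FPKM with Dox. The groups did not overlap, but the step was small, 1.11-fold (log2 0.15, 95% interval 0.06 to 0.23, adjusted p = 0.0342). Its call was lost without any of the 3 libraries without Dox and without replicates 2 or 3 with Dox, with adjusted p-values of 0.0455 to 0.109 over all 6 omissions, and also without limma's trend and with the unmoderated model (adjusted p = 0.0511 there).

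Cldn12 (ENSMUSG00000046798, chr5:5489537-5514958, - strand), a claudin that lacks the usual C-terminal binding motif for PDZ plaque proteins, was at 30.7, 32.2 and 33.9 FPKM without Dox and 46.4, 44.5 and 52.8 FPKM with Dox. All 3 libraries with Dox were above all 3 without, and Cldn12 rose 1.48-fold (log2 0.57, 95% interval 0.39 to 0.74, adjusted p = 0.00363). The gene listed as Cldn25 carries the identifier that GENCODE M21 names Cldnd1, a claudin-domain protein. Its libraries were at 44.6, 46.2 and 44.4 FPKM without Dox and 41.8, 44.1 and 41.2 FPKM with Dox. Its groups did not overlap and lay in the opposite order, yet the difference did not pass (log2 -0.09, 95% interval -0.20 to 0.02, adjusted p = 0.258).

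Summed over the 25 rows with a claudin symbol, FPKM came to 189 ± 3.38 in cells without Dox and 214 ± 5.26 in cells with Dox (SD, n = 3 each). This sum and the shares below include Cldnd1 (the row Cldn25) and Tmem114 (the row Cldn26). Cldn3 made up 57.7% ± 0.512 of the sum in cells without Dox and 56.5% ± 0.923 in cells with Dox (SD, n = 3 each). Cldn12 made up 17.0% ± 0.540 and 22.4% ± 1.69, respectively, and the share of Cldn25 was 23.8% ± 0.653 without Dox and 19.8% ± 0.881 with Dox. The other 22 claudins together made up 1.43% ± 0.139 without Dox and 1.30% ± 0.0774 with Dox.

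Of those 22 low claudins, 9 were listed at 0 in all libraries (Cldn5, Cldn8, Cldn11, Cldn13, Cldn14, Cldn16, Cldn17, Cldn22 and Cldn24). The remaining 13 were fitted without the filter, over 20513 genes, where 3.81% of genes rose and 4.03% fell. Cldn6 (ENSMUSG00000023906, chr17:23679249-23682446, + strand) alone of the 13 passed, listed at 0 in the 3 libraries without Dox but at 0.0604, 0.0801 and 0.106 FPKM with it (adjusted p = 0.0474). These values are worth about 1 or 2 reads per library, and the call was lost when any single library was left out (adjusted p 0.0816 to 0.143) and with a pseudocount of 1 FPKM, among other settings (0.0221 to 0.154 over all alternatives). Cldn4, an epithelial claudin often lost in mesenchymal-like tumor cells, was listed at 0 without Dox but at 0.1, 0.0326 and 0.0872 FPKM with it, which corresponds to 2, 1 and 2 reads (adjusted p = 0.104, range 0.0468 to 0.261 over the alternatives). At this depth a difference in Cldn4 was not reliably detectable.

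Cldn7, another epithelial claudin, was at 0.965 FPKM in without-Dox replicate 1 and listed at 0 in the other two, against 0.345, 0.292 and 0.154 FPKM with Dox. The group without Dox thus spanned the group with Dox (log2 0.69, 95% interval -1.67 to 3.04, adjusted p = 0.733). Cldn1 was at 0.407, 0.917 and 0.566 FPKM without Dox and 0.709, 0.926 and 0.641 FPKM with Dox, and the groups overlapped (log2 0.28, adjusted p = 0.707). Cldn9 was at 0.443, 0.484 and 0.486 FPKM without Dox and 0.720, 0.639 and 0.856 FPKM with Dox. Its groups did not overlap but rest on 7, 7 and 10 reads against 11, 15 and 15 reads (log2 0.55, 95% interval -0.11 to 1.2, adjusted p = 0.321). Cldn20 pointed the other way, at 0.520, 0.944 and 0.934 FPKM without Dox and 0.177, 0.232 and 0.624 FPKM with Dox, with overlap between the groups (log2 -1.11, 95% interval -2.26 to 0.04, adjusted p = 0.256).

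Of all 20 members above 0 but under the filter, 3 rose (Lsr, Ocln and Cldn6), where 3.81% of all genes in this fit rose and 4.03% fell. By limma and by the unmoderated model 0 fell, and 0 were lower at an unadjusted p under 0.05. Cldn4, Cldn6, Cldn26 and Marveld2 were listed at 0 in every library without Dox and so could only rise. Cldn2 and Cldn10 were listed at 0 in every library with Dox and could only fall.

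Outside the claudins, the strand and corner proteins were low without Dox. Occludin (ENSMUSG00000021638, chr13:100496507-100552718, - strand), the first tight junction membrane protein described, was at 0.277, 0.0486 and 0.103 FPKM without Dox and 0.965, 0.920 and 0.851 FPKM with Dox. Every library with Dox was above every library without, and in the fit without the filter Ocln rose 4.49-fold (log2 2.17, 95% interval 1.17 to 3.16, adjusted p = 0.0310). Its call held without without-Dox replicate 1 (adjusted p = 0.0232) and was lost without any other library (up to 0.0945) and with a pseudocount of 0.01 FPKM. Ocln held an E-box in both of its promoter windows and the paired seed letters printed above.

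Marveld2 (tricellulin) and Marveld3, the other MARVEL proteins, were lower still. Marveld2 was listed at 0 without Dox but at 0.2, 0.0262 and 0.0488 FPKM with it (adjusted p = 0.253). Marveld3 was at 0.227 FPKM in without-Dox replicate 2 and listed at 0 in the other two, against 0.285, 0.210 and 0.478 FPKM with Dox, so its groups overlapped (adjusted p = 0.201).

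Lsr (ENSMUSG00000001247, chr7:30957770-30973464, - strand), the lipolysis-stimulated lipoprotein receptor or angulin-1, recruits tricellulin to the corners where 3 cells meet. Lsr had 0.0458 FPKM in without-Dox replicate 1 and listed at 0 in the other two, against 0.944, 1.29 and 1.41 FPKM with Dox. The groups were far apart, at about 1, 0 and 0 reads against 23, 48 and 39 reads if all came from the longest transcript, and Lsr passed in the fit without the filter (adjusted p = 0.00248, range 0.00221 to 0.0361 over the alternatives). On the log2(FPKM + 0.1) scale the difference was 3.52 (95% interval 2.75 to 4.28), a value set in part by the pseudocount. Of its exon bases 43.6% lie opposite the antisense gene Gm4673, and whether strand was used in the counting is not stated. Gm4673 averaged 1.98 ± 0.269 FPKM in cells without Dox and 1.66 ± 0.388 FPKM in cells with Dox (SD, n = 3 each).

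F11r (ENSMUSG00000038235, chr1:171437535-171464603, + strand), which encodes the adhesion protein JAM-A, was abundant already, at 105, 95.2 and 111 FPKM without Dox and 127, 142 and 144 FPKM with Dox. The groups did not overlap and F11r rose 1.32-fold (log2 0.40, 95% interval 0.24 to 0.57, adjusted p = 0.0110), a call lost with the unmoderated linear model (adjusted p = 0.0700, range 0.00899 to 0.0700 over the alternatives). Jam2, the next JAM in level, was at 7.21, 6.73 and 7.19 FPKM without Dox and 5.57, 7.07 and 5.79 FPKM with Dox, with overlap (log2 -0.20, 95% interval -0.48 to 0.08, adjusted p = 0.315). Jam3 was at most 0.0593 FPKM in any library.

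**Figure D2:**
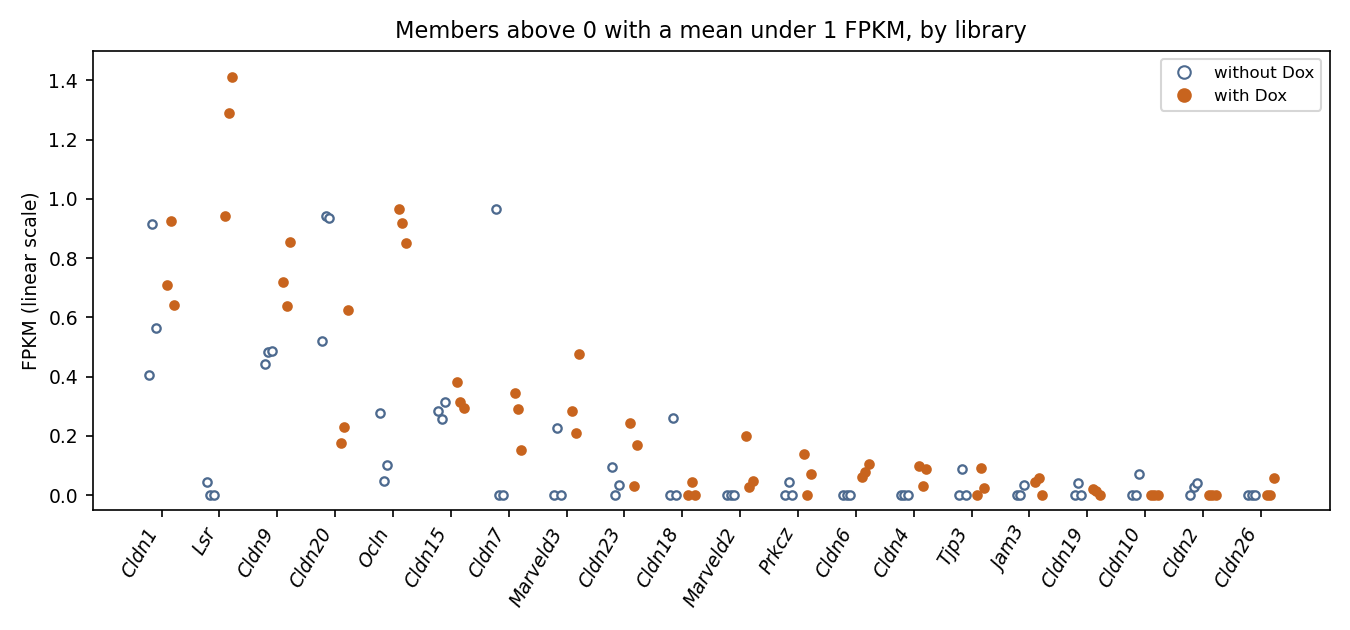
FPKM of the 20 members above 0 with a mean under 1 FPKM in each library, on a linear axis, with open circles for libraries without Dox and filled circles for libraries with Dox. Lsr and Ocln are near 0 without Dox and near 1 FPKM with Dox, Cldn7 shows the single high library without Dox, and Cldn4 and Cldn6 stay close to 0.

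In the plaque, the cingulin pair rose together and by different amounts. Cingulin (Cgn, ENSMUSG00000068876, chr3:94760069-94786492, - strand), which links ZO proteins to actomyosin and holds the RhoA activator GEF-H1 at junctions, was at 5.6, 5.93 and 6.19 FPKM without Dox and 22.8, 24.2 and 25.1 FPKM with Dox. The groups were far apart and Cgn rose 4.02-fold (log2 2.01, 95% interval 1.83 to 2.18, adjusted p = 2.04e-05), the largest fold among tested members that were above 0 without Dox. Cgn shares 34.6% of its longest transcript with the pseudogene BC021767, so reads could be split between them. BC021767 averaged 2.47 ± 0.557 FPKM in cells without Dox and 7.47 ± 0.797 FPKM in cells with Dox (SD, n = 3 each).

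Paracingulin (Cgnl1, ENSMUSG00000032232, chr9:71626509-71771602, - strand) was the highest plaque gene, at 129, 116 and 130 FPKM without Dox and 172, 169 and 172 FPKM with Dox. There was no overlap and Cgnl1 rose 1.37-fold (log2 0.46, 95% interval 0.34 to 0.58, adjusted p = 0.00161). Tjp1, which encodes the scaffold ZO-1, was at 59.5, 56.3 and 57.3 FPKM without Dox and 61.7, 59.9 and 63.7 FPKM with Dox. Its groups just failed to overlap and the difference did not pass (log2 0.10, 95% interval -0.01 to 0.20, adjusted p = 0.193). Mpdz, the multi-PDZ scaffold MUPP1, gave a log2 difference of -0.04 (95% interval -0.30 to 0.22, adjusted p = 0.846), and Tjp3 (ZO-3) was at most 0.0926 FPKM in any library.

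In the Crumbs complex, the membrane anchor and a scaffold rose, while the adaptors did not pass. Crb3 (ENSMUSG00000044279, chr17:57059105-57065918, + strand), the Crumbs protein of most epithelia, was listed at 0 in the 3 libraries without Dox but at 4.31, 2.60 and 2.06 FPKM with it (adjusted p = 0.00211, range 0.000967 to 0.0230 over the alternatives). Every library with Dox was above every library without, and no fold is given against a group listed at 0. The values with Dox correspond to at most 54, 50 and 29 reads, and fewer if shorter transcripts were the source.

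Inadl (ENSMUSG00000061859, chr4:98395785-98719603, + strand), whose current name is Patj, is a multi-PDZ scaffold that binds the Crumbs adaptor Pals1. Its libraries were at 9.35, 3.19 and 2.61 FPKM without Dox and 12.4, 13.9 and 17.1 FPKM with Dox. The groups did not overlap, although without-Dox replicate 1 stood nearer to the libraries with Dox than to its own group. Inadl rose 3.29-fold (log2 1.72, 95% interval 0.68 to 2.75, adjusted p = 0.0413). Without that replicate the log2 difference was 2.27 (adjusted p = 0.00160), and without any other single library the call was lost (adjusted p up to 0.129). It was lost too with no filter, without limma's trend and with the unmoderated model (adjusted p up to 0.157).

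The adaptor Mpp5 (Pals1) was at 20.5, 19.9 and 23.3 FPKM without Dox and 23.5, 24.7 and 22.9 FPKM with Dox, with overlap (log2 0.16, 95% interval -0.02 to 0.33, adjusted p = 0.212). Lin7c, a PDZ protein that binds Pals1 and the highest gene of the complex, was at 62.7, 67.0 and 59.5 FPKM without Dox and 72.8, 67.0 and 58.6 FPKM with Dox. Its groups overlapped (log2 0.06, 95% interval -0.14 to 0.26, adjusted p = 0.673).

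In the PAR-aPKC complex 1 of the 5 tested genes rose, Pard6b. The PAR6 proteins are adaptors that join Cdc42 and aPKC. Pard6b (ENSMUSG00000044641, chr2:168081004-168101203, + strand) was at 3.60, 2.75 and 3.09 FPKM without Dox and 5.64, 5.93 and 6.04 FPKM with Dox. The groups stood well apart and Pard6b rose 1.85-fold (log2 0.89, 95% interval 0.56 to 1.21, adjusted p = 0.00685). Its 3′ UTR held the paired seed letters and its promoter held the 2 E-boxes printed above.

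Neither paralog of Pard6b passed. Pard6a was at 14.7, 14.2 and 13.9 FPKM without Dox and 10.9, 13.2 and 14.0 FPKM with Dox, with overlap (log2 -0.18, 95% interval -0.42 to 0.07, adjusted p = 0.314). Pard6g gave a log2 difference of 0.06 (95% interval -0.18 to 0.31, adjusted p = 0.747). Pard6b accounted for 12.1% ± 1.68 of the FPKM of the 3 PAR6 genes in cells without Dox and 21.4% ± 1.11 in cells with Dox (SD, n = 3 each), and so remained the lowest of them.

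Prkci, the atypical protein kinase C iota and the main aPKC here, was at 51.2, 51.3 and 54.0 FPKM without Dox and 57.7, 58.5 and 57.5 FPKM with Dox. Its groups did not overlap and its adjusted p fell just outside the threshold (log2 0.15, 95% interval 0.05 to 0.25, adjusted p = 0.0523, range 0.0443 to 0.139 over the alternatives). Pard3, the scaffold PAR3, was at 69.1, 56.5 and 64.2 FPKM without Dox and 88.0, 70.0 and 71.7 FPKM with Dox, barely without overlap (log2 0.27, 95% interval 0.02 to 0.52, adjusted p = 0.144). Prkcz was at most 0.140 FPKM in any library.

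In the Scribble module, Llgl2 moved most. Lgl proteins are aPKC substrates that keep apical proteins off the basolateral membrane. Llgl2 (ENSMUSG00000020782, chr11:115824049-115855780, + strand) was at 21.7, 19.9 and 20.3 FPKM without Dox and 46.8, 52.8 and 47.6 FPKM with Dox. All libraries with Dox were far above all libraries without, and Llgl2 rose 2.37-fold (log2 1.24, 95% interval 1.09 to 1.4, adjusted p = 8.42e-05). Its paralog Llgl1 was at 33.3, 33.1 and 30.4 FPKM without Dox and 31.1, 33.8 and 29.7 FPKM with Dox, with overlap (log2 -0.03, 95% interval -0.19 to 0.12, adjusted p = 0.784).

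Dlg1 (ENSMUSG00000022770, chr16:31663443-31875129, + strand), the scaffold Discs large and the highest of all members, was at 183, 179 and 173 FPKM without Dox and 207, 209 and 213 FPKM with Dox. The groups did not overlap and Dlg1 rose 1.17-fold (log2 0.23, 95% interval 0.15 to 0.31, adjusted p = 0.00467). Scrib was at 57.5, 54.9 and 56.1 FPKM without Dox and 58.1, 61.0 and 59.5 FPKM with Dox, just without overlap (log2 0.08, 95% interval -0.01 to 0.18, adjusted p = 0.231). Of the angiomotins, which bind Pals1, Patj and the Hippo effector YAP, Amotl1 was at 62.2, 60.2 and 61.2 FPKM without Dox and 68.8, 65.5 and 69.1 FPKM with Dox. Its groups did not overlap and it narrowly missed the threshold (log2 0.15, 95% interval 0.05 to 0.24, adjusted p = 0.0532, range 0.0483 to 0.157 over the alternatives), while Amot overlapped between groups (log2 0.14, 95% interval -0.05 to 0.33, adjusted p = 0.307).

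**Figure D3:**
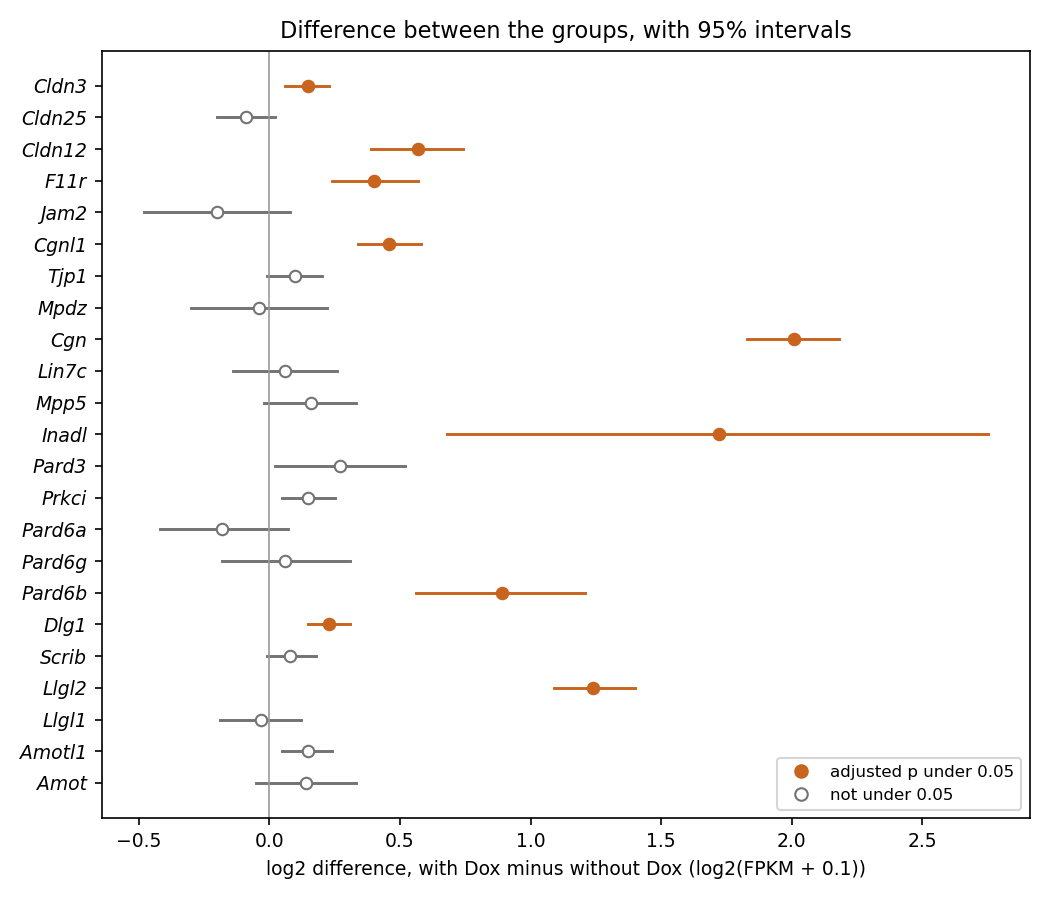
Log2 difference, with Dox minus without Dox, of 23 tested members with 95% intervals, filled where the adjusted p was under 0.05. Crb3 is left out because it was listed at 0 without Dox. Cgn, Inadl, Llgl2 and Pard6b have the largest differences, the interval of Inadl is the widest, and no filled point lies below 0.

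Whether related genes shifted against each other was read from their FPKM ratio within each library, over 5 pairs chosen after the values were seen. With 3 libraries against 3 the exact two-sided permutation test cannot go below p = 0.1, and all 5 pairs gave p = 0.1, with no overlap between the groups. The ratio of Llgl2 to Llgl1 was 0.650, 0.601 and 0.670 without Dox and 1.5, 1.56 and 1.61 with Dox. Llgl2 thus passed from the lesser to the greater of the pair in FPKM. The ratio of Cgn to Cgnl1 was 0.0474 ± 0.00402 in cells without Dox and 0.140 ± 0.00679 in cells with Dox (SD, n = 3 each), so Cgnl1 remained the higher gene. Pard6b to Pard6a went from 0.220 ± 0.0253 to 0.467 ± 0.0465 (SD, n = 3 each), and F11r to Jam2 from 14.7 ± 0.623 to 22.5 ± 2.35 (SD, n = 3 each). The smallest shift of the 5 was that of Cldn12 to Cldn3, by 0.42 on the log2 scale.

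**Figure D4:**
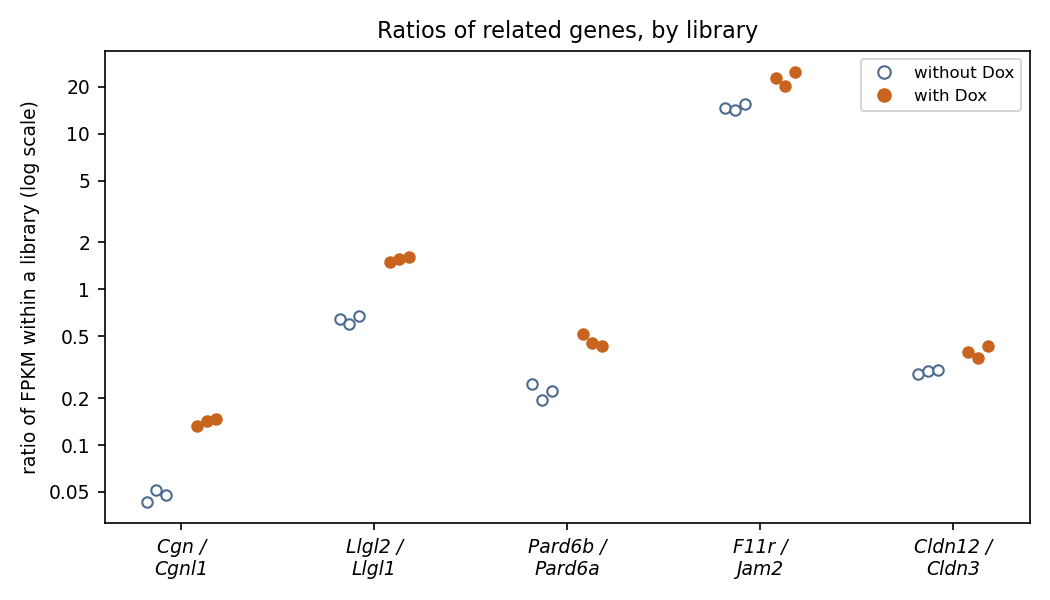
Ratio of FPKM between 2 related genes within each library on a log axis, with open circles for libraries without Dox and filled circles for libraries with Dox. The 3 ratios with Dox lie above the 3 without in each of the 5 pairs, and only the Llgl2 to Llgl1 ratio crosses 1.

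Promoter letters differed in number among the members that passed. Of the 9 tested members that rose and had a promoter entry, 6 held an E-box in at least 1 window. So did 2 of 9 that were tested and did not pass, and 3 of 3 low members that passed (Lsr, Ocln and Cldn6). Low members that did not pass also held them in Marveld2, Prkcz, Tjp3, Cldn4 and Cldn7. Low members without them were Cldn1, Cldn2, Cldn10, Cldn15, Cldn18, Cldn19, Cldn20 and Cldn26. Cldn14, listed at 0 in all libraries, held the letters too. The 3 tested members that rose without one were Cgn, Cgnl1 and Cldn12. In Cldn3 and Dlg1 the letters stood only after the start. The letters AACCGGTT, a consensus for Grainyhead-like factors, were in no member's window and in 0.174% of genes. The looser form AACCNGTT (N for any base), on either strand, was in 2 of 41 members (4.88%) and in 2.35% of genes. These members were Cgn, which rose, and Cldn5, which was listed at 0. Genes with more annotated starts have more windows to hold a match, and no test was made of these counts.

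**Figure D5:**
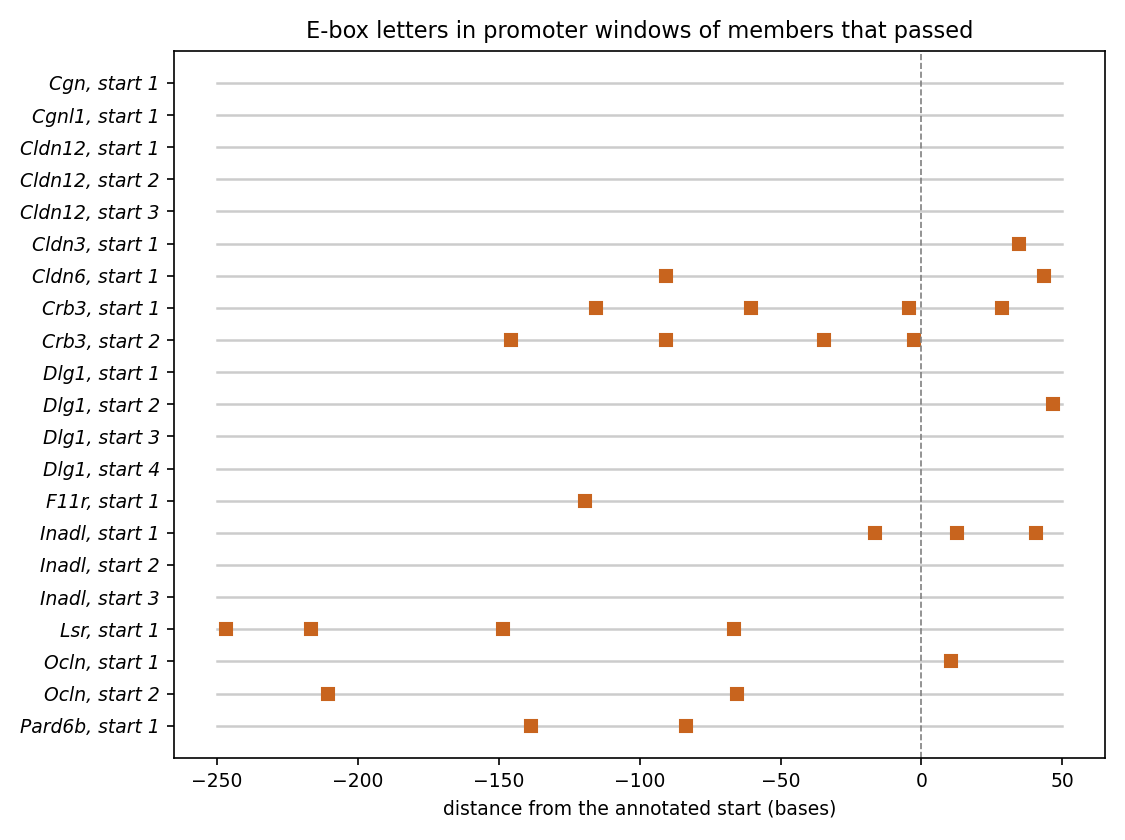
Positions of the E-box letters (squares) from 250 bases before to 50 bases after each annotated start (dashed line at 0) for the 12 members that passed and have a RefSeq promoter entry, with 1 row per start. Crb3 and Lsr hold 4 in a row, all 4 of Lsr before the start, while Cgn, Cgnl1 and Cldn12 hold none.

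Other junction and polarity genes outside the members were read from a list. Of its 32 genes with a row that are reported, 22 were tested. By limma 3 rose and 0 fell, where 7.06% of all genes tested rose and 7.97% fell. The groups did not overlap in 5 genes that were higher with Dox and in 5 that were lower, where 17.4% and 17.6% of all genes did so. At an unadjusted p under 0.05, 4 were lower, and the unmoderated model called 2 higher and 0 lower. The median log2 difference of the 22 was -0.04. Cxadr, the coxsackievirus and adenovirus receptor of tight junctions, was at 17.0, 15.5 and 16.9 FPKM without Dox and 23.3, 25.1 and 26.7 FPKM with Dox, without overlap (log2 0.60, adjusted p = 0.00261). The other two that rose were the polarity kinase Mark2, by 0.35 on the log2 scale (adjusted p = 0.00716), and the ZO-1-associated factor Ybx3, by 0.12 (adjusted p = 0.0365).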

How the data were processed

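Met-1 TripZ-200c cells without and with Dox were compared, with 3 libraries per group assigned from the sample labels. The authors prepared stranded libraries, sequenced single 50-base reads, mapped them with gSNAP to the mouse genome (GRCm38.p6, with FVB_NJ_v1 also named) and estimated FPKM with Cufflinks. Versions, and whether strand was used in counting, are not given in the sources used here. The deposited table held FPKM per gene and library, which divides out transcript length and mapped reads. It also held the authors' group means, fold changes, p-values and q-values, which were not used. There were 0 unused columns of per-sample values. Of rows with a repeated identifier the highest was used, and placeholders in 4 genes, none of them members, were treated as missing.

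Genes averaging at least 1 FPKM (12879) were fitted on log2(FPKM + 0.1) by limma 3.58.1 (R 4.3.3) using lmFit and trended eBayes, with group as the only term and Benjamini-Hochberg adjustment. A fold on this scale understates the change of low genes. Values of members under the filter come from an equal fit over the 20513 genes above 0. On simulated data, 80% of 200 genes changed by 1 log2 unit were called among 12875 genes, and 5.33% of calls were unchanged genes. Smaller changes, a larger number of changed genes and genes under the filter were not simulated. Reads behind FPKM were estimated from the smallest steps between values, with transcript length less about 200 bases. Between 75.6% and 88.9% of values under 10 reads came out whole within 0.1, which was not enough for a count test. Depth limits the precision of members under 1 FPKM, and read numbers of genes with several transcripts are upper estimates.

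A member is given with each library's value if it passed in either fit, if its groups do not overlap at a mean of at least 1 FPKM, or if it leads its role group, and others were added for their biology after their values were seen. The members and lists were chosen with earlier results of these data known. From the list of other junction and polarity genes 1 gene is not reported here and was left out of its counts. Coordinates and 3′ UTRs are those of GENCODE M21 (GRCm38), and promoters and microRNAs those of RefSeq (GRCm38.p6). Shared sequence was found with BLAST 2.17.0 (95% identity, 50 bases or more). Python 3.11.15, numpy 2.4.6, pandas 2.3.3, scipy 1.17.1 and matplotlib 3.10.9 were used for the rest. Alternatives were other pseudocounts, filters, normalizations and models, stricter thresholds, a replicate block and the omission of each library.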

Additional observations from a re-analysis of the deposited data

How the results depend on the processing

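The count of 10 members that rose was 7 to 12 under every alternative except a minimum change of 1.5-fold, which left 5, and it was 8 to 9 when a library was left out. Members that fell stayed at 0 in each alternative fit with limma, and were 0 in the unmoderated model, which was run at a single setting. Members whose groups do not overlap numbered 16 of 24, where 17.4% of all genes tested were higher without overlap and 17.6% lower. The number was 14 with a minimum mean of 5 FPKM and 22 with no filter. With a library left out it was 16 to 19, but fewer libraries make non-overlap easier, so this range is no measure of stability. The median log2 difference of 0.15 became 0.23 with no filter, where low members enter, and 0.14 to 0.19 with a library left out. The 3 other junction genes became 1 with the 1.5-fold minimum and 2 to 3 with a library left out. The 1935 genes called in all became 770 at an adjusted p of 0.01, 452 with the 1.5-fold minimum and 1048 to 1359 with a library left out (the fewest without with-Dox replicate 3), and the cause was not tested beyond the stricter thresholds and fewer samples themselves. The 3 low members that rose (Lsr, Ocln and Cldn6) became 1 at an adjusted p of 0.01, and 1 to 2 with a library left out (1 without any library other than without-Dox replicate 1).

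Of the 13 members that passed in either fit, 8 (Cgn, Cgnl1, Cldn12, Crb3, Dlg1, Llgl2, Lsr and Pard6b) kept their call in all alternatives that gave them a value, apart from the stricter adjusted p and the 1.5-fold minimum. Cldn3, Cldn6, F11r, Inadl and Ocln lost it in at least 1. Of the 31 that did not pass, 4 passed in at least 1 alternative (Amotl1, Cldn4, Pard3 and Prkci). No call changed direction.

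The groups share replicate numbers, but same-numbered libraries deviated together with correlations of 0.029, 0.036 and -0.008, so the numbers do not pair them. With the number as a replicate block, 9 members rose and 0 fell, and 1 low member rose. Cldn3 (adjusted p = 0.0741), Inadl (0.0671), Ocln (0.0885) and Cldn6 (0.154) lost their calls with the block, while Pard3 passed (0.0399). In that fit 3 other junction genes and 1337 genes in all were called. The 16 members without overlap and the median of 0.15 could not change with a block in this balanced design.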

Other observations

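In the library without-Dox replicate 1, several epithelial genes were the highest of their group. Of the 11 members that rose and were above 0 without Dox, 6 were highest in replicate 1, 0 in replicate 2 and 5 in replicate 3. Of the 5 epithelial genes outside the members that rose, 4 were highest in replicate 1. The largest gaps were in Inadl (9.35 FPKM against 3.19 and 2.61), Ocln (0.277 against 0.0486 and 0.103) and Elf3, an epithelial transcription factor (2.18 against 0.947 and 1.23). Cldn7, which did not pass, was at 0.965 FPKM there and listed at 0 in the other two. Without this library the log2 differences were 2.27 for Inadl (adjusted p = 0.00160), 2.54 for Ocln (0.0232) and 1.82 for Cldn7 (0.0582). These genes were picked for their high value in this library, so leaving it out widens their differences by construction. The pattern in replicate 1 was noticed after the values were seen and was not tested.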
